A study of Homo sapiens with 18 samples.

Results

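HOX genes encode transcription factors that bind DNA through a homeodomain, and humans carry them in 4 clusters named HOXA, HOXB, HOXC and HOXD. The members were the protein-coding genes whose symbol is HOXA, HOXB, HOXC or HOXD followed by a number, which gave 39 of the 63568 entries of the deposited expression table. HOXA held 11 of them (chr7:27092993-27200106, build GRCh38), HOXB 10 (chr17:48528526-48729178), HOXC 9 (chr12:53938765-54056030) and HOXD 9 (chr2:176092891-176190907). The cells were HEK293, an established line derived from human embryonic kidney, and no genotype or other treatment differed between the groups. RNA made after the addition of 500 µM 4-thiouridine, a uridine analogue, was biotinylated and purified on streptavidin after 7.5, 15, 30, 45 or 60 min of labelling, with 3 libraries for each of these 5 times. The remaining group held 3 libraries of total RNA, not selected on streptavidin, in which replicate 1 was selected for poly(A) with oligo-dT, replicate 2 was depleted of ribosomal RNA with RNase H and replicate 3 with Ribo-Zero. The labels do not say that replicates came from separate cultures, so the p-values below measure only the spread between these libraries, which may be technical. In RNA from a whole culture, fewer cells that express a gene and less of its RNA per cell cannot be told apart.

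Within each cluster the genes lie in the order in which they act along the body axis, those of low number toward the head and those of high number toward the tail, the limb ends and the genital tract. Genes of the same number in different clusters are paralogues that arose when an ancestral cluster was copied, and they often act redundantly. HOX proteins bind DNA with cofactors of the PBX and MEIS families, and their genes are kept on or off by Trithorax and Polycomb complexes. In the kidney, the genes numbered 11 are needed for the early organ to form in mice. Each gene was measured as mature RNA (all spliced isoforms) and as primary RNA (a transcript that spans the whole locus, introns included), both in TPM, a share of all transcripts that allows for the length of each.

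The homeobox, the part of the gene that codes for the homeodomain, shows how alike the members are. A homeobox of 180 bases was found in all 39 genes of the GRCh38 sequence. The 42 pairs of genes with the same number were identical at a median of 81.7% of its bases (range 69.4 to 90.6%), against a median of 60% over the 527 pairs that shared neither number nor cluster. The last 90 bases of the homeobox, which include the code of the helix that reads DNA, are printed for HOXB9, HOXC9 and HOXD9, since the genes numbered 9 held the most HOX RNA in these cells (30.2% of mature HOX TPM). They lie in coding sequence at chr17:48622921-48623010 (minus strand) for HOXB9, chr12:54002555-54002644 (plus) for HOXC9 and chr2:176124059-176124148 (plus) for HOXD9. Capitals mark bases that differ from HOXB9, 20 in HOXC9 and 18 in HOXD9.
HOXB9: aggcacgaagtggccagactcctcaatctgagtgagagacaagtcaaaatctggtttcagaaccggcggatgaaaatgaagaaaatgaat
HOXC9: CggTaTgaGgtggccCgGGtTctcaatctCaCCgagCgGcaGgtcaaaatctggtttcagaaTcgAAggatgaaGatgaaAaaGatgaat
HOXD9: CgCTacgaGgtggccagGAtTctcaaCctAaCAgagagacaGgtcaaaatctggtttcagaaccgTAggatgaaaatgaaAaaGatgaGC
Over the whole homeobox, HOXB9 was 82.2% identical to HOXC9 and 84.4% to HOXD9, and HOXC9 was 83.3% identical to HOXD9. The longest run of bases shared by a pair of the same number had a median of 17 bases, and the longest among these pairs was 51 bases, between HOXB3 and HOXD3. The 172 pairs within a cluster had a median identity of 61.4% and a highest of 91.1%. Their longest shared run had a median of 14 bases and also reached 51. A read that falls wholly within such a run could be assigned to either gene, and how many did so was not tested.

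The TPM carry no read depth, so no counting interval can be given. Mature RNA was above 0 for 18318 to 20407 entries in 14 of the labelled libraries and for 15159 in replicate 2 of 45 min, and for 22906 to 24470 in the total libraries. Several HOX genes were listed at 0 in replicate 2 of 45 min, and the comparisons of 60 with 7.5 min below were repeated without it. Primary RNA made up 22.3 to 23.8% of all TPM at 7.5 min, 7.19 to 11% at 60 min and 0.528 to 0.879% in total RNA, so that scaling to a fixed sum raises mature values and lowers primary values with time. PAX2, a gene of the embryonic kidney, was at 8.87 ± 1.39 TPM (mean ± SD, n = 3) at 7.5 min, and NEFM, a neurofilament gene reported in this line, was below 1 TPM on average. Of 13 markers of other cell types, CD3E, COL1A2 and INS were listed at 0 in all 18 libraries. HBA1, a blood marker, reached 18.8 TPM and COL1A1, a fibroblast marker, 5.78 TPM, and their part in the HOX values was not tested.

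HEK293 cells expressed genes from all 4 clusters. Mature RNA reached a mean of 1 TPM over the 15 labelled libraries for 11 of 11 HOXA, 9 of 10 HOXB, 7 of 9 HOXC and 8 of 9 HOXD genes. The 4 that did not were HOXB1, which patterns the hindbrain, HOXC5, HOXC12 and HOXD12, and their highest values in any labelled library were 0.52, 2.11, 0.57 and 1.83 TPM. HOXC5 was listed at 0 in 11 of the 15 labelled libraries but at 0.94, 1.88 and 1.32 TPM in the 3 libraries of 60 min. In total RNA the same numbers held except in HOXD, where 7 of 9 reached the level because HOXD1 averaged 0.373 TPM. HOXA9 was the most abundant member, with a mean of 255 TPM over the labelled libraries. It was followed by HOXA10 at 89.3, HOXA5 at 88.4, HOXA6 at 81.1, HOXA13 at 77.4, HOXB3 at 77 and HOXB9 at 76.8 TPM, and the libraries of these 6 genes overlapped. HOXC was led by HOXC9 at 44.3 TPM and HOXD by HOXD11 at 31.4 and HOXD10 at 29.8 TPM. Grouped by number across the clusters, the genes numbered 9 summed to 392 TPM, those numbered 3 held 11.4% of mature HOX TPM, 6 held 10.8%, 10 held 9.71% and 13 held 9.46%, while those numbered 12 held 0.0407%.

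**Figure D1:**
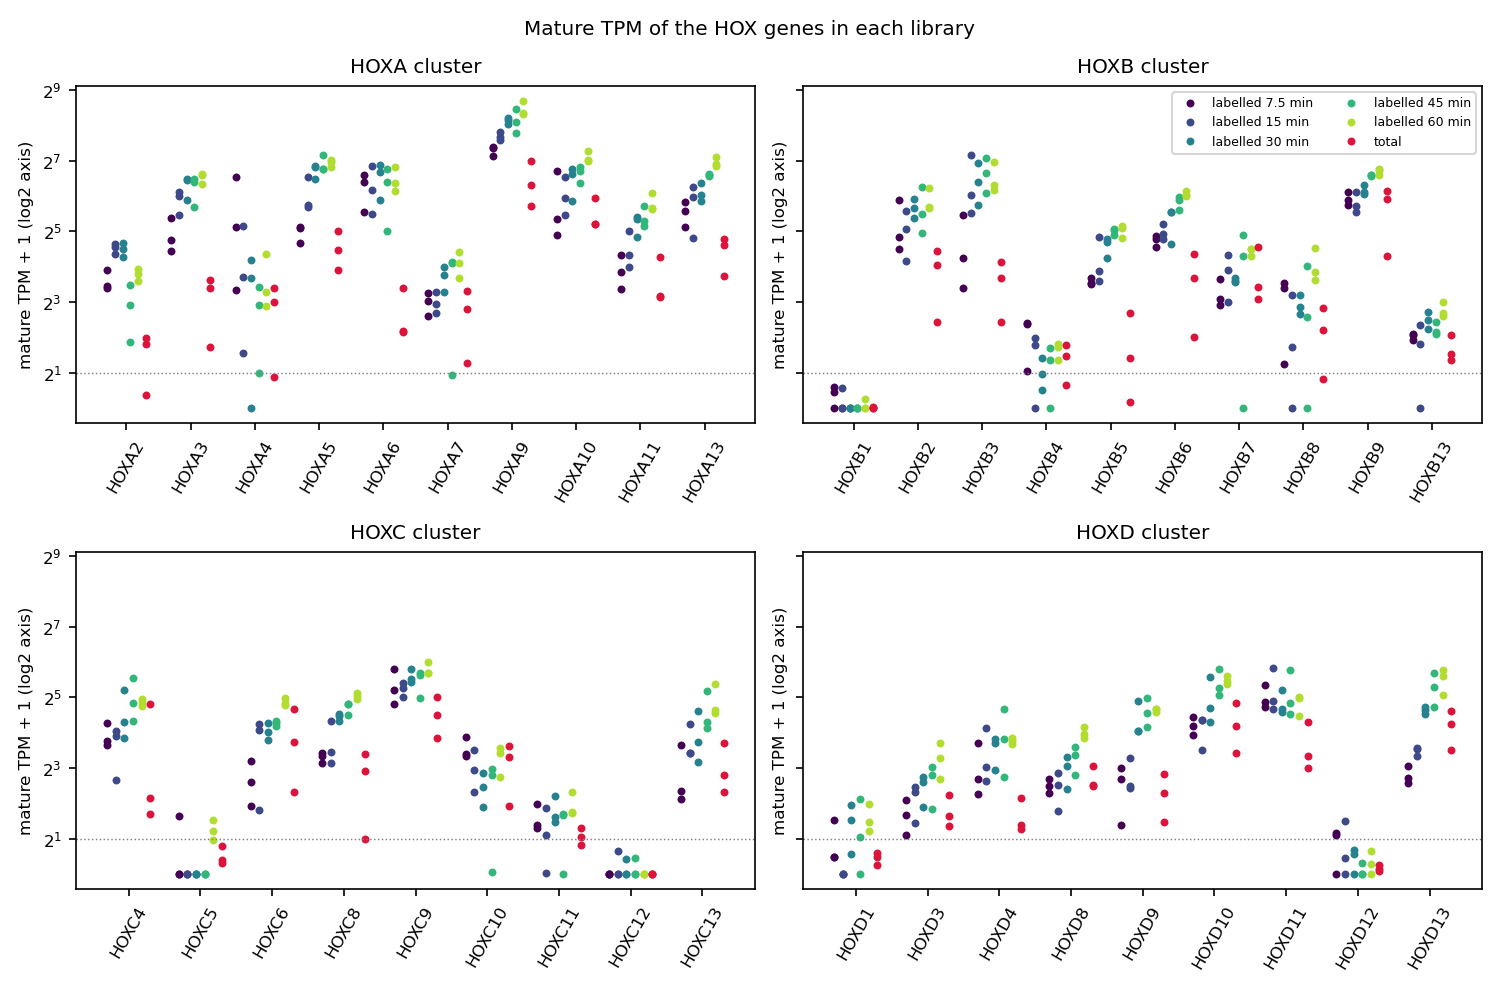
Mature TPM (plus 1, log2 axis) of the HOX genes, 1 panel per cluster with the genes in order of number and 1 point per library, coloured by labelling time or total RNA. The dotted line marks 1 TPM; HOXA9 lies above all other members in every library, and HOXB1, HOXC5, HOXC12 and HOXD12 lie at or near the bottom.

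Added over its genes, HOXA held the most mature RNA at every labelling time, HOXB the next most, and HOXC and HOXD the least. Mature RNA summed to 477 ± 102 TPM for HOXA at 7.5 min and 1038 ± 120.5 at 60 min, and for HOXB to 178 ± 36.9 and 394 ± 54.6 TPM. HOXC summed to 87.4 ± 20.3 TPM at 7.5 min and 185 ± 15.8 at 60 min, and HOXD to 74.6 ± 12.2 and 178 ± 18 TPM. The 3 libraries of HOXA did not overlap those of HOXB at any labelling time, nor did those of HOXB overlap HOXC or HOXD, whereas HOXC and HOXD overlapped at all 5 times. HOXA held 58.4% of mature HOX TPM at 7.5 min and 57.8% at 60 min, and HOXA9 alone held 34% of the HOXA sum over the labelled libraries. The 4 sums were higher at 60 than at 7.5 min by similar factors, 2.17-fold for HOXA, 2.21-fold for HOXB, 2.12-fold for HOXC and 2.39-fold for HOXD. With TPM rescaled over mature RNA alone these factors were 1.84, 1.87, 1.8 and 2.02. Differences between clusters in these factors were not tested.

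Primary RNA was spread over the clusters in another way. On the deposited scale, at 7.5 min it summed to 314 ± 17.3 TPM for HOXA, 269 ± 23.4 for HOXD, 195 ± 11.7 for HOXB and 174 ± 16 for HOXC. At 60 min the sums were 142 ± 15.5, 177 ± 25.5, 122 ± 20.8 and 60.2 ± 16.6 TPM in the same order of clusters. The libraries of HOXA and HOXD overlapped at both times. HOXD therefore held 28.3% of primary but 9.13% of mature HOX TPM at 7.5 min, and 48% of primary HOX TPM in total RNA. A single gene carried most of this, since HOXD10 made up 58% of primary HOXD RNA, while HOXB3 made up 47.8% of HOXB, HOXC4 45.1% of HOXC and HOXA3 28.8% of HOXA.

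**Figure D2:**
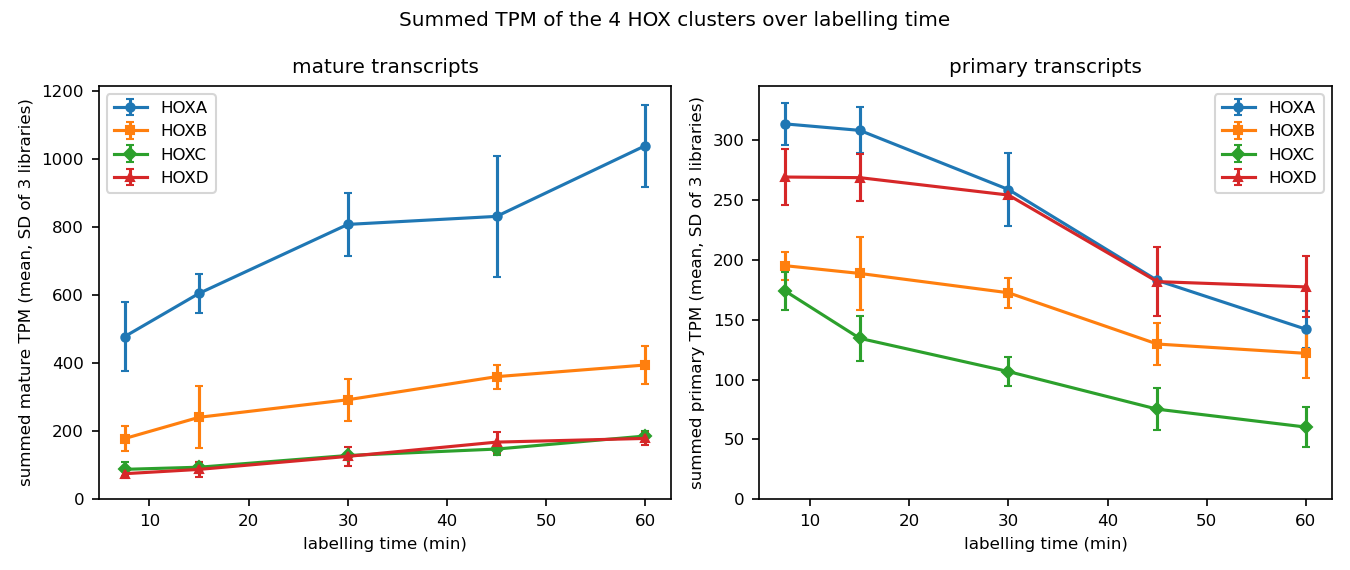
Summed TPM of the genes of each HOX cluster at each labelling time (min), mature on one panel and primary on the other, as mean and SD of 3 libraries. On the deposited scale mature sums are higher and primary sums lower at 60 than at 7.5 min in all 4 clusters, with HOXA highest among mature sums and HOXA and HOXD highest among primary sums at 7.5 min.

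Mature HOX RNA became a larger part of the labelled RNA as labelling went on. Between 7.5 and 60 min, 19 of the 35 HOX genes tested rose and 0 fell, in limma over 16739 genes on log2(TPM + 1) with a Benjamini-Hochberg adjusted p under 0.05; over all genes 15.8% rose and 4.21% fell. At an unadjusted p under 0.05, 20 HOX genes rose and 0 fell. The median log2 change was 1.28 over the HOX genes tested and 0.24 over all genes. On this scale the change of genes with low TPM is understated. With median-ratio scaling the median over all genes was -0.05 and that of HOX genes 0.95. With that scaling 15 of 35 HOX genes rose, beside 1297 of 16705 genes. The 4 that no longer passed were HOXA10, HOXB9, HOXD3 and HOXD10. By cluster, 7 of 11 HOXA, 4 of 9 HOXB, 3 of 7 HOXC and 5 of 8 HOXD genes rose, with medians of 1.44, 1.21, 0.97 and 1.39. Whether the clusters differ in these shares was not tested.

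**Figure D3:**
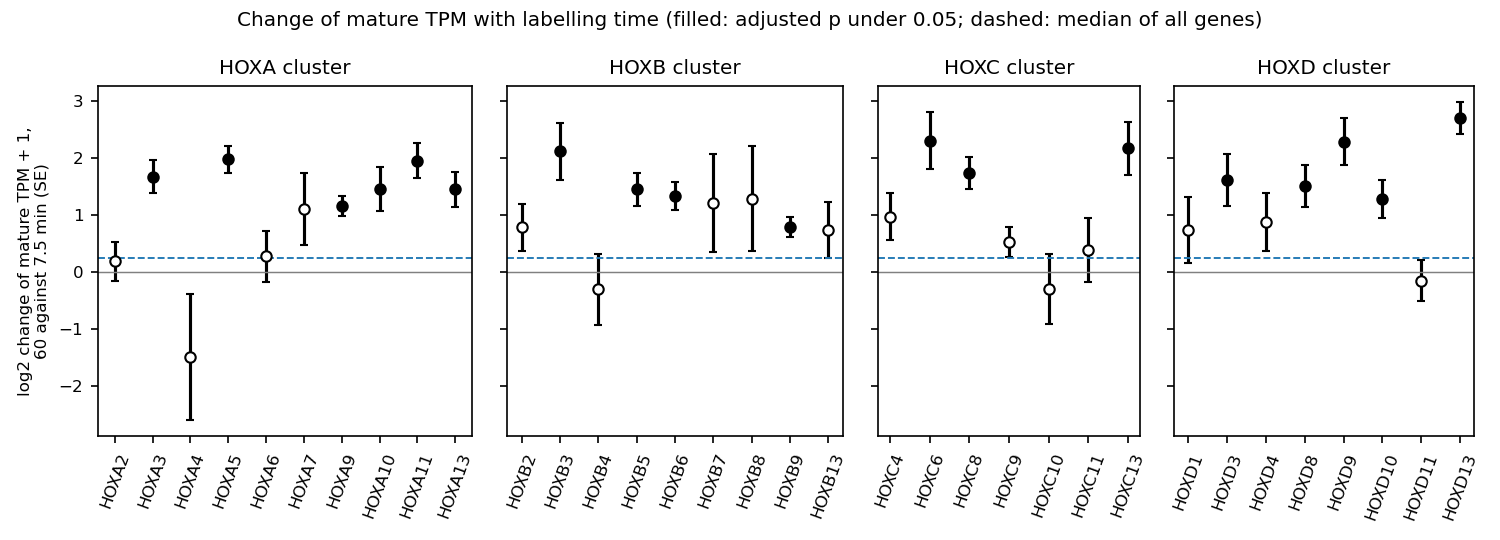
Log2 change of mature TPM (plus 1) from 7.5 to 60 min of labelling for the HOX genes tested, with SE; filled points have an adjusted p under 0.05 (limma) and the dashed line is the median of all genes, 0.24. HOXD13 lies highest, and no filled point lies below 0.

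In HOXA, the genes that rose included HOXA3, HOXA5, HOXA9, HOXA10, HOXA11 and HOXA13. HOXA9, a gene needed by blood stem cells and active in many leukaemias, was at 166, 141 and 163 TPM in the 3 libraries of 7.5 min and at 409.6, 323 and 321 TPM in those of 60 min. In between it was at 207 ± 16.8 at 15 min, 280.1 ± 16.4 at 30 min and 281 ± 67.4 at 45 min (mean ± SD, n = 3 here and below). The groups at both ends did not overlap, and the difference was 2.24-fold, equal to 1.15 ± 0.18 (SE) on the log2 scale (limma, adjusted p = 0.000437). HOXA5, which the developing lung needs, was at 33.4, 24.6 and 34 TPM at 7.5 min against 129, 113 and 125 TPM at 60 min. It was at 105 ± 14.9 TPM at 30 min and stood at 119 ± 19.1 at 45 min, so its highest single library (141 TPM) was one of 45 min. Its log2 change was 1.97 ± 0.23 (limma, adjusted p = 5.32e-05). HOXA10, which patterns the uterus, was at 104, 28.9 and 39.4 TPM at 7.5 min, where replicate 1 stood apart, and at 155, 127 and 129.7 TPM at 60 min. Its primary RNA was listed at 0 in that same replicate, as described below. The log2 change of HOXA10 was 1.45 ± 0.39 (limma, adjusted p = 0.016), and it lost its call under median-ratio and quantile scaling and when replicate 2 or 3 of 7.5 min or replicate 1 of 60 min was left out.

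HOXA11, HOXA3 and HOXA13 rose too. HOXA11, one of the genes of the early kidney, was at 19.1, 9.32 and 13.5 TPM at 7.5 min against 66.5, 49 and 50.0 at 60 min, a 3.95-fold difference. HOXA3, needed for the thymus and parathyroid, was at 26.1, 20.7 and 40.7 and 98.3, 96 and 80.4 TPM, or 3.14-fold. HOXA13, a gene of the limb ends and the genital tract, was at 33.7, 55.9 and 47 and 119.9, 113 and 137 TPM, 2.71-fold. For each of these genes every library of 60 min lay above every library of 7.5 min. In limma the log2 changes were 1.95 ± 0.31 for HOXA11, 1.67 ± 0.29 for HOXA3 and 1.44 ± 0.30 for HOXA13, with adjusted p of 0.00046, 0.000871 and 0.00329.

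HOXA2, HOXA4, HOXA6 and HOXA7 did not pass. HOXA2, which sets the identity of the second pharyngeal arch, was highest in between, at 22 ± 2.34 at 15 min, 21.4 ± 3.21 at 30 min and 6.46 ± 3.76 at 45 min, against 11.2 ± 2.34 TPM at 7.5 min and 12.8 ± 1.64 at 60 min. All 6 libraries of 15 and 30 min lay above those of the other labelling times, and no test of this pattern was made. HOXA6 was already at 95.5, 83 and 45.9 TPM at 7.5 min and was at 112, 81.7 and 70.3 at 60 min. The log2 changes of HOXA2 and HOXA6 (0.19 ± 0.34 and 0.27 ± 0.45) turned to below 0 with median-ratio scaling. HOXA4 was at 92.2, 33.9 and 9.15 TPM at 7.5 min against 19.5, 6.42 and 8.76 at 60 min, a spread at 7.5 min wider than any difference of its means (log2 change -1.49 ± 1.11; limma, adjusted p = 0.399). HOXA7 was at 8.62, 7.16 and 5.06 TPM at 7.5 min against 20.5, 16.1 and 11.9 at 60 min with no overlap (log2 change 1.10 ± 0.63; limma, adjusted p = 0.254). Within 45 min it was at 16.5, 0.89 and 16.2 TPM, so that replicate 2 stood apart.

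In HOXB, HOXB3, HOXB5, HOXB6 and HOXB9 rose. HOXB3, a hindbrain gene that also acts in the thyroid, was at 43.2, 9.56 and 18 TPM at 7.5 min against 124, 78.4 and 70.9 at 60 min. Its libraries overlapped those of 60 min from 15 min on, with 83.6 ± 51.4 at 15 min, 86 ± 34.9 at 30 min and 101 ± 33.4 at 45 min, and replicate 1 was the highest library at 7.5, 15, 30 and 60 min. The difference was 3.86-fold (log2 change 2.11 ± 0.50; limma, adjusted p = 0.00749). HOXB6 was at 22.6, 28.5 and 26.3 TPM at 7.5 min against 70.1, 64.1 and 63.6 at 60 min, and HOXB5, which acts in neurons of the gut wall, at 10.6, 11.7 and 10.4 and 27.3, 34.6 and 33 TPM. These were differences of 2.56-fold and 2.9-fold, with log2 changes of 1.32 ± 0.24 and 1.45 ± 0.29 (limma, adjusted p = 0.00143 and 0.00242). Neither gene's groups overlapped. HOXB9, which patterns the thorax, changed least of those that passed: it was at 68.6, 52.9 and 58 TPM at 7.5 min against 108, 105 and 96.3 at 60 min, 1.73-fold (limma, adjusted p = 0.00622). That call was lost under median-ratio and quantile scaling.

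HOXB2, HOXB4, HOXB7, HOXB8 and HOXB13 did not pass. HOXB2, a hindbrain gene, was at 57.8, 21.7 and 27.4 TPM at 7.5 min against 73.5, 49.5 and 50.5 at 60 min, and these groups overlapped. HOXB7, active in the ureteric bud of the kidney, was at 6.55, 7.47 and 11.6 and 21.6, 18.6 and 21.7 TPM. HOXB8, a gene of myeloid progenitors, was at 1.35, 10.5 and 9.46 and 22.3, 13.3 and 11.3 TPM. Neither HOXB7 nor HOXB8 overlapped between these times, but both were listed at 0 in replicate 2 of 45 min, and their log2 changes were 1.21 ± 0.86 and 1.28 ± 0.92. HOXB4, known for expanding blood stem cells, was at 4.19, 1.05 and 4.26 and 2.51, 1.57 and 2.29 TPM, and ranged from 0 to 4.26 TPM over the labelled libraries. HOXB13, a gene of the prostate, was at 3.24, 2.82 and 3.15 and 6.98, 5.46 and 5.05 TPM.

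In HOXC, HOXC6, HOXC8 and HOXC13 rose. HOXC6 was at 2.77, 5.04 and 8.22 TPM at 7.5 min against 30.9, 27.7 and 26.4 at 60 min, a 5.3-fold difference. HOXC13, which controls hair and nail keratins, was at 11.4, 4.08 and 3.31 and 40.7, 24.1 and 22.6 TPM, 4.64-fold. HOXC8, which acts in motor neurons of the lower neck, was at 7.82, 9.81 and 9.13 and 34, 30.1 and 31.8 TPM, 3.59-fold, and had the narrowest spread of the 3. The groups of these 3 genes did not overlap, and their log2 changes were 2.30 ± 0.50, 2.17 ± 0.46 and 1.74 ± 0.28 (limma, adjusted p = 0.00469, 0.00394 and 0.000518). HOXC9, which specifies thoracic motor neurons and was the most abundant HOXC gene, did not pass: it was at 54.6, 36.2 and 26.9 TPM at 7.5 min against 50.3, 50.6 and 63.5 at 60 min, and the groups overlapped. HOXC4, a gene active in lymphocytes, was at 18.3, 11.6 and 12.5 and 28.1, 26.2 and 30.1 TPM without overlap, with a log2 change of 0.97 ± 0.42 (limma, adjusted p = 0.119). It was highest in the library with the fewest listed entries, replicate 2 of 45 min, at 45.5 TPM. HOXC10, a gene of the lumbar spinal cord, was at 13.5, 9.56 and 9.19 and 10.8, 5.68 and 9.66 TPM and at 4.51 ± 1.75 at 30 min. HOXC11 was at 1.62, 2.97 and 1.46 and 4.03, 2.31 and 2.37 TPM, and ranged from 0 to 4.03 TPM over the labelled libraries.

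In HOXD, HOXD3, HOXD8, HOXD9, HOXD10 and HOXD13 rose. HOXD13, which shapes fingers and toes, changed most of all HOX genes in mature RNA. It was at 4.9, 7.27 and 5.61 TPM at 7.5 min, then at 10.2 ± 0.985 at 15 min, 23.7 ± 1.83 at 30 min and 38.2 ± 12.7 at 45 min, and reached 53.8, 32.6 and 47.2 TPM at 60 min. The groups at 7.5, 15 and 30 min did not overlap one another, and the difference from 7.5 to 60 min was 7.51-fold (log2 change 2.70 ± 0.28; limma, adjusted p = 1.96e-05). HOXD9, a limb gene, was at 1.63, 6.98 and 5.48 TPM at 7.5 min against 24.6, 24.4 and 23.1 at 60 min, 5.12-fold (log2 change 2.28 ± 0.41; limma, adjusted p = 0.00115). Its mean had reached 19.9 ± 7.66 TPM by 30 min. HOXD10 was at 20.6, 17.4 and 14.3 and 47.4, 42.6 and 40.3 TPM, HOXD8 at 5.42, 4.61 and 3.89 and 14.7, 13.3 and 17 TPM, and HOXD3 at 2.17, 3.27 and 1.13 and 12.1, 5.43 and 8.67 TPM. None of the 3 overlapped between these times, and their log2 changes were 1.28 ± 0.33, 1.51 ± 0.36 and 1.61 ± 0.46 (limma, adjusted p = 0.0122, 0.00816 and 0.0215). HOXD10 lost its call when replicate 3 of 7.5 min was left out, and HOXD3 when that library or replicate 1 or 3 of 60 min was.

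HOXD1, HOXD4 and HOXD11 did not pass. HOXD11, a gene of the forearm and early kidney and the most abundant of HOXD in mature RNA, was at 39.6, 25.4 and 27.9 TPM at 7.5 min against 31.2, 30.5 and 21.2 at 60 min. These groups overlapped, and its log2 change of -0.15 ± 0.36 turned to above 0 without replicate 1 of 7.5 min or replicate 3 of 60 min. HOXD4 was at 12.1, 5.39 and 3.78 and 12.6, 11.8 and 13.3 TPM, and HOXD1 at 0.38, 0.38 and 1.87 and 1.34, 1.77 and 2.92 TPM. Both overlapped between the times. Among the genes numbered 11, HOXA11 was thus the one that passed.

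On the deposited scale, primary HOX RNA made up a smaller part of the labelled RNA with time, as primary RNA of most genes did. Of 27 HOX genes tested on primary TPM, 20 fell and 1 rose from 7.5 to 60 min, beside 75% of all 14497 primary transcripts that fell and 0.635% that rose (limma, adjusted p under 0.05). The median log2 change was -0.92 over the HOX genes and -1.15 over all primary transcripts, and it was 0.46 and 0.03 with median-ratio scaling between libraries. That scaling was computed over primary transcripts alone and removes a change shared by most of them. It therefore cannot show whether primary RNA fell in general, only how a gene moved relative to the others. With that scaling 1 HOX gene fell and 7 rose, and over all transcripts 3378 fell and 2948 rose, against 10874 and 92 on the deposited scale. Of the calls on the deposited scale, those of HOXA3 (lower) and HOXB6 (higher) held in each of the 13 settings run. HOXA3 was at 117, 113 and 125 TPM at 7.5 min against 17.9, 30.2 and 33.4 at 60 min, 4.35-fold lower (log2 change -2.13 ± 0.26; limma, adjusted p = 6.75e-05). Its means in between were 104 ± 17.7 at 15 min, 60.0 ± 4.3 at 30 min and 38.1 ± 12 at 45 min.

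The other large primary levels were those of HOXD10, HOXB3, HOXC4, HOXA13 and HOXA9. HOXD10 had the highest, with 168, 151 and 151 TPM at 7.5 min against 93.2, 121 and 129 at 60 min, and 19.6, 15.6 and 6.84 TPM in total RNA. HOXB3 was at 108, 110.3 and 123 and 28.6, 44.8 and 53.8 TPM at these labelling times, and HOXC4 at 70.9, 77 and 77.3 and 18.8, 30.1 and 34.2 TPM. None of the 3 overlapped between 7.5 and 60 min, and their log2 changes were -0.46 ± 0.17, -1.45 ± 0.26 and -1.45 ± 0.27 (limma, adjusted p = 0.0217, 0.000291 and 0.000361), which turned to 1.02, 0.015 and 0.0053 with median-ratio scaling. HOXA9 was at 38.4, 48.9 and 46.6 and 42.9, 37.4 and 36 TPM with overlap, and its highest mean was 63.5 ± 17.9 at 30 min (log2 change -0.19 ± 0.22; limma, adjusted p = 0.432). HOXA2 was at 24.5, 35.2 and 27.6 and 5.74, 6.98 and 7.08 TPM, 4.41-fold lower, with a log2 change of -1.98 ± 0.25 (limma, adjusted p = 8.06e-05).

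HOXA13 and most of the remaining primary transcripts were also lower at 60 min on the deposited scale. Of the genes in this paragraph, HOXC9, HOXC11, HOXD1 and HOXD8 did not pass (limma, adjusted p = 0.0844, 0.662, 0.579 and 0.477), and the others did. With median-ratio scaling HOXA13, HOXB7, HOXD3 and HOXD11 passed as higher instead. In HOXA, HOXA13 was at 67.5, 62.1 and 60.1 TPM at 7.5 min against 27.4, 35.3 and 48.3 at 60 min, HOXA11 at 27.1, 20.4 and 26.3 and 13.4, 8.71 and 9.15, and HOXA7 at 2.92, 3.38 and 1.53 and 0.26, 1.1 and 1.48 TPM. In HOXB, HOXB2 was at 17.7, 16.8 and 18.6 and 5.97, 6.42 and 7.26 TPM, HOXB7 at 33.8, 30.6 and 32.4 and 18.8, 22.3 and 25, and HOXB9 at 29, 23.6 and 31.5 and 12.7, 11.6 and 18 TPM. For each of these genes all 60 min libraries lay below those of 7.5 min on the deposited scale. In HOXC, HOXC6 was at 21.9, 28.8 and 32.1 and 4.39, 10.3 and 12.4 TPM, HOXC8 at 22.7, 22 and 35.7 and 5.87, 6.41 and 9.44, HOXC9 at 18.7, 15.7 and 23.1 and 5.64, 10.7 and 6.76, and HOXC13 at 21.1, 16.4 and 17.1 and 4.37, 4.92 and 7.43 TPM. In HOXD, HOXD9 was at 54.2, 36.6 and 30.2 and 17.6, 21 and 22.6 TPM, HOXD11 at 29.2, 30.7 and 31.8 and 12.1, 18.1 and 20.8, HOXD3 at 22.9, 21 and 21.5 and 10.7, 12.2 and 16.3, and HOXD13 at 16.3, 12.4 and 18.8 and 11.4, 8.11 and 7.46 TPM. These HOXC and HOXD genes did not overlap between the times either. Levels were low for HOXC10 at 5.1, 6.81 and 5.43 and 1.56, 2.65 and 1.88 TPM, HOXC11 at 1.1, 1.41 and 1.23 and 0.88, 1.06 and 0.89, HOXD1 at 1.22, 0 and 0 and 0.63, 0.46 and 0.6, and HOXD8 at 4.57, 3.52 and 4.01 and 3.64, 3.17 and 1.99 TPM. Over the labelled libraries these 4 ranged from 1.04 to 12.2, 0.3 to 2.84, 0 to 3.04 and 0 to 7.23 TPM, and HOXC8 and HOXC9 were listed at 0 in replicate 2 of 45 min.

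HOXB6 was the exception in primary RNA. It was at 0, 1.05 and 0 TPM at 7.5 min against 0, 0 and 0.9 at 15 min, then at 6.21, 18.7 and 18.6 at 30 min, 34.9, 22.1 and 31.2 at 45 min and 36.6, 33.3 and 38.9 TPM at 60 min. Total RNA had 4.63, 1.3 and 0.9 TPM. The log2 change from 7.5 to 60 min was 4.87 ± 0.40 (limma, adjusted p = 1.22e-05). In the annotation used here for loci, 99.1% of the HOXB6 locus lies inside the locus of HOXB3 on the same strand. The TPM were computed with an earlier release, whose locus spans may differ and were not compared. If the spans are alike, a read from an intron of either gene can fall within both primary transcripts. HOXB3 primary RNA fell over the same times, and the primary TPM of HOXB3, HOXB4, HOXB5 and HOXB6 together were 116 ± 6.27 at 7.5 min, 101 ± 23.1 at 15 and 94.4 ± 14.4 at 30 min, then 79.3 ± 15.3 at 45 and 78.6 ± 13.7 at 60 min. How far reads were divided between these loci was not tested.

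**Figure D4:**
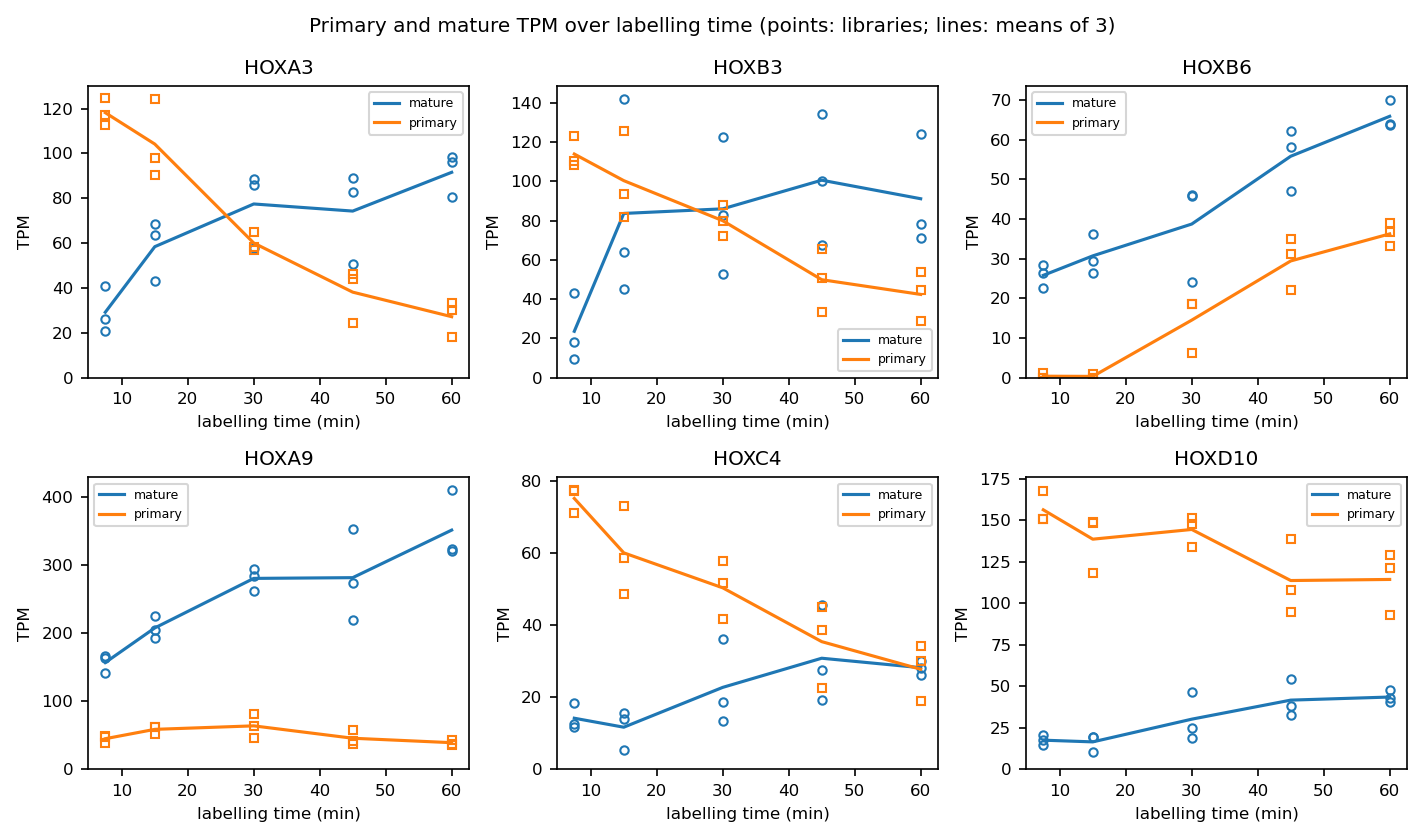
Primary and mature TPM of HOXA3, HOXB3, HOXB6, HOXA9, HOXC4 and HOXD10 over labelling time (min), 1 point per library and lines through the means of 3. On the deposited scale primary RNA is highest at 7.5 min for HOXA3, HOXB3, HOXC4 and HOXD10, while for HOXB6 it goes from 0.35 TPM on average at 7.5 min to 36.3 at 60 min.

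Overlap of this kind was common in the clusters. In GENCODE release 29, 12 HOX loci lie inside another HOX locus on the same strand: HOXA4, HOXA5 and HOXA6 in HOXA3, HOXB4, HOXB5 and almost all of HOXB6 in HOXB3, HOXB8 and HOXB9 in HOXB7, HOXC5 in HOXC4, HOXC8 and HOXC9 in HOXC6, and HOXD4 in HOXD3. Of these, 11 had a mature mean of at least 1 TPM, and 7 of the 11 had a primary mean below 1 TPM: HOXA4, HOXA5, HOXA6, HOXB4, HOXB5, HOXB8 and HOXD4. HOXA6 for example had a mature mean of 81.1 TPM and a primary value listed at 0 in all 15 labelled libraries, and HOXA4, HOXB5 and HOXB8 were also listed at 0 in all 15. Of the 27 loci not inside another HOX locus, 24 had a mature mean of at least 1 TPM. Of these 24, 1 had a primary mean below it, HOXB13 (0.964 TPM). The TPM were computed with an earlier release, whose locus spans may differ and were not compared. Where the spans are alike, primary values of the enclosed genes cannot be told apart from those of the enclosing ones. The primary TPM of HOXA3 and the 3 genes inside it went from 118 ± 6.12 at 7.5 min to 27.2 ± 8.17 at 60 min.

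Other HOX loci overlap one another in part, HOXA9 with HOXA10, HOXC4 with HOXC6 and HOXD10 with HOXD11. Some loci also share their strand with protein-coding genes outside the HOX list. AC004080.3 covers 91.4% of HOXA9 and 97.4% of HOXA10. AC012531.2 covers 100% of HOXC6, HOXC8 and HOXC9 and 85.0% of HOXC10, and AC009336.2 covers 60.3% of HOXD3 and 100% of HOXD4. Whether the release behind the TPM holds these genes, and how reads were divided with them, was not tested. HOXA10 primary RNA was at 0, 23 and 30.9 TPM at 7.5 min, so replicate 1 was listed at 0, and at 17.9, 16.6 and 19.5 at 60 min. In that replicate mature HOXA10 was the highest of 7.5 min, at 104 TPM. The summed primary TPM of HOXA9 and HOXA10 were 62.6 ± 21.2 at 7.5 min, 107 ± 27.5 at 30 min and 56.8 ± 3.6 at 60 min, and those of HOXD10 and HOXD11 187 ± 8.88 at 7.5 min and 131 ± 23.2 at 60 min. Antisense genes lie across many loci too: HOXB-AS3 covers 98.6% of HOXB3 and HOXA-AS2 57.2% of HOXA3 on the opposite strand. Whether the counting used strand is not stated, and without strand reads from a gene and its antisense partner cannot be told apart.

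Before a constant is added, the ratio of primary to mature TPM does not depend on how a library is scaled. With 0.1 TPM added, the tested ratio can depend on the scaling where values are near 0, as in primary HOXB6 at 7.5 min. It fell from 7.5 to 60 min for 18 of the 30 HOX genes tested and rose for 1, HOXB6, beside 62.8% and 1.09% of 13879 genes (limma on log2 of the ratio with 0.1 TPM added to both, adjusted p under 0.05). The median log2 change was -2.19 over the HOX genes and -1.81 over all genes. It fell for 7 of 8 HOXA, 3 of 7 HOXB, 4 of 7 HOXC and 4 of 8 HOXD genes. Among the genes reported here HOXC6 had the largest decrease, -4.22 ± 0.86, followed by HOXC13 at -4.08 ± 0.55, HOXA3 at -3.87 ± 0.49, HOXC8 at -3.70 ± 1.23 and HOXD13 at -3.69 ± 0.39. Their adjusted p in limma were 0.000869, 4.76e-05, 3.22e-05, 0.0176 and 1.15e-05. HOXC8, whose locus lies inside that of HOXC6, lost its call when replicate 3 of 7.5 min or replicate 1 of 60 min was left out. HOXB6 changed by 5.97 ± 1.02 (limma, adjusted p = 0.000251).

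Expressed as the primary share of a gene's primary and mature TPM, the unspliced share after 60 min was highest for HOXD10, HOXD3, HOXB7 and HOXC4. HOXD10 went from 90.0 ± 1.16% at 7.5 min to 72.1 ± 5.19% at 60 min and 43.3 ± 3.63% in total RNA. HOXD3 went from 90.9 ± 4.26 to 60.4 ± 11.9%, HOXB7 from 79.3 ± 5.13 to 51.6 ± 4.4% and HOXC4 from 84.2 ± 4.06 to 48.9 ± 7.68%. HOXD9 followed at 45.7 ± 3.94% at 60 min. Each of these loci but HOXD9 encloses or overlaps another HOX locus, and HOXD-AS2 covers all of HOXD9 on the opposite strand. HOXC6 and HOXA3 began high and ended low, at 84.5 ± 4.62 and 80.6 ± 4.66% at 7.5 min and 23.9 ± 10.2 and 22.9 ± 7.02% at 60 min. HOXA9 had a low primary share by this measure, at 22.3 ± 3.51% at 7.5 min and 9.99 ± 0.454% at 60 min. By the authors' junction counts, however, its 1036-base and 173-base introns were only 17.4 and 11.2% excised at 7.5 min. A low primary share of TPM thus does not show that the introns of HOXA9 were spliced, and the difference between the measures was not tested. HOXB6 ran the other way, at 1.19 ± 2.05% at 7.5 min and 35.5 ± 2.13% at 60 min.

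Mature HOX RNA made up a smaller part of total RNA than of RNA labelled for 60 min. Mature TPM were lower in total RNA for 25 of the 35 HOX genes tested and higher for 0, beside 40.1% lower and 5.24% higher of 16580 genes (limma, adjusted p under 0.05). At an unadjusted p under 0.05, 29 were lower and 0 higher. The median log2 difference, total minus 60 min, was -1.91 over the HOX genes and -0.84 over all genes. With median-ratio scaling these medians were -1.05 and -0.06, and 14 of 34 HOX genes were lower, beside 2523 of 16486 genes. Among others, HOXA2, HOXA3, HOXA5, HOXA6, HOXA9, HOXA11, HOXA13, HOXB3, HOXB5, HOXB6, HOXC8 and HOXD9 were lower in each of the 11 settings run. The genes lower in total RNA were 9 of 11 in HOXA, 5 of 9 in HOXB, 4 of 7 in HOXC and 7 of 8 in HOXD. The 3 total libraries were made by different selection methods and spread widely, with all HOX mature TPM summing to 456 ± 225, against 1796 ± 204 at 60 min.

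HOXA6 differed most between the 2 kinds of RNA. It was at 9.55, 3.41 and 3.52 TPM in total RNA against 112, 81.7 and 70.3 at 60 min, 16-fold lower (log2 difference -3.88 ± 0.47; limma, adjusted p = 5.15e-06). HOXA3 was at 11.3, 9.52 and 2.29 TPM in total RNA (11.9-fold lower), HOXB5 at 5.5, 1.69 and 0.13 (13-fold) and HOXB3 at 16.5, 11.7 and 4.37 (8.39-fold). No total library of these 4 genes reached the lowest library of 60 min. Their log2 differences were -3.62 ± 0.40, -3.59 ± 0.45 and -3.07 ± 0.53 for HOXA3, HOXB5 and HOXB3 (limma, adjusted p = 2.58e-06, 7.80e-06 and 0.000139). HOXA9 remained the most abundant member in total RNA at 127, 78.8 and 51.8 TPM, 4.09-fold below 60 min. HOXB9 at 70.3, 59.9 and 18.7, HOXA10 at 60.2, 35.8 and 35.9 and HOXC9 and HOXA5 at 31.1, 21.7 and 13.5 and 31.4, 21.1 and 13.8 TPM came next, and the libraries of HOXB9 overlapped those of each of the other 3. The 10 genes that did not pass were HOXA4, HOXA7, HOXB4, HOXB7, HOXB8, HOXB13, HOXC6, HOXC10, HOXC11 and HOXD1, of which HOXA7 had an adjusted p of 0.0501 in limma. The sign of the difference turned with median-ratio and quantile scaling for HOXB4, HOXB7 and HOXC10, and with quantile scaling for HOXC11.

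The total libraries of a gene could lie far apart. HOXC4 was at 27, 3.4 and 2.21 TPM in the poly(A), RNase H and Ribo-Zero libraries, HOXC6 at 24.6, 12.3 and 3.94 and HOXB7 at 22.4, 7.43 and 9.81 TPM. HOXA13 was at 26.6, 23.4 and 12.3, HOXB2 at 21, 15.5 and 4.39, HOXB6 at 19.7, 11.7 and 3.03, HOXC9 at 31.1, 21.7 and 13.5 and HOXC8 at 9.45, 6.47 and 0.98 TPM. HOXD10 was at 27.8, 17.3 and 9.82, HOXD13 at 23.4, 17.9 and 10.5, HOXD11 at 18.9, 9.04 and 7.02 and HOXD9 at 6.06, 3.9 and 1.76 TPM. In each of the genes just named the poly(A) library was the highest, and the Ribo-Zero library was the lowest in all of them but HOXB7, where the RNase H library was, and with 1 library per method the method and the library cannot be told apart. Without the Ribo-Zero library 21 HOX genes were lower in total RNA than at 60 min in place of 25, and HOXC4, HOXD3, HOXD10 and HOXD11 lost their calls. HOXC4 also lost its call without the RNase H library.

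The authors' deposited table of RNA life cycle rates listed 20 HOX genes, 7 of HOXA, 4 of HOXB, 4 of HOXC and 5 of HOXD, with rates estimated from these same libraries. In the authors' deposited table, the log10 degradation rate lay above the median of 12631 protein-coding genes for 17 of the 20, with a HOX median of 0.15 against -0.10. The highest were HOXA3 at 0.76, HOXA2 at 0.71, HOXB3 at 0.67 and HOXD9 at 0.64, with 97.5 to 98.3% of protein-coding genes of the authors' deposited table below them. HOXB9 (-0.17), HOXD13 (-0.16) and HOXA7 (-0.13) were the 3 below the median. The log10 synthesis rate in the authors' deposited table lay above the protein-coding median for 14 of the 20, and was highest for HOXA9 at 1.2, HOXD10 at 0.94, HOXB3 at 0.92 and HOXA3 at 0.86. HOXC11 (-0.79) was the lowest. Thus HOXA3 and HOXB3 were near the top in both rates, and HOXA9 in synthesis with a degradation rate of 0.06.

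In the authors' deposited table the processing score, whose log base is not stated and which is used here for order only, lay above the protein-coding median for 7 of the 20 genes. All 5 HOXD genes lay below it, and HOXD10 was lower than all but 1.12% of protein-coding genes. At the other end HOXB9 was above 96.5% of them in the authors' deposited table. The log2 cytoplasmic to nuclear ratio, which the authors took from other libraries of separated cells, was highest for HOXC6 (0.84), HOXC13 (0.64), HOXD13 (0.59) and HOXA11 (0.55). It was lowest in the authors' deposited table for HOXA2 (-0.82), HOXD9 (-0.71) and HOXA3 (-0.43). The log2 polysomal to cytosolic ratio lay above the protein-coding median for 14 of the 20, and the log10 translation score from ribosome profiling for 8 of the 20. For HOXA2, HOXD9 and HOXD10 that score in the authors' deposited table stood at its lowest value, -2.97. The authors' deposited table sorts genes into 7 classes by these measures, and it placed 9 HOX genes in class c3 (among them HOXA3, HOXA9, HOXA13, HOXB2, HOXB3, HOXC4, HOXC6 and HOXC13), 4 in c2, 3 in c4, 3 in c6 (HOXA2, HOXD9 and HOXD10), 1 in c1 (HOXB9) and 0 in c5 and c7.

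Splicing of single introns was given for 7 HOX introns of 5 genes among the 21782 introns of the authors' deposited table, as the excised share averaged over the 3 libraries of a labelling time. The median over all introns went from 54.2% at 7.5 min to 84.4% at 60 min, and all 7 HOX introns lay below it at 60 min. The 173-base intron of HOXA9 (chr7:27204587-27204759, build hg19) was the least excised, with 11.2% at 7.5 min and 26.5% at 60 min, and 0.234% of introns in the authors' deposited table were lower at 60 min. The neighbouring 1036-base intron of the same gene (chr7:27203461-27204496, hg19) went from 17.4 to 61.4% in the authors' deposited table. Introns in HOXC4 (chr12:54431799-54446943, hg19, 15145 bases) and HOXB3 (chr17:46651377-46667486, hg19, 16110 bases) went from 16.6 to 44% and from 17.8 to 41.4%. Both lie below the median of all introns at each of the 5 times. HOXA13 (chr7:27238062-27238774, hg19, 713 bases) went from 39.5 to 76.5% in the authors' deposited table. Both introns of HOXD11 (chr2:176969355-176973634 and chr2:176972865-176973634, hg19) share their 3′ end and were at 54.2 and 58.9% at 7.5 min and 54.8 and 58.5% at 60 min. In between, the longer of them was at 64.8% at 15 min, 49% at 30 min and 51.5% at 45 min, and the shorter was at 66.8, 59.4 and 60.7%. No error can be given for these shares, since the authors' deposited table holds means alone.

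**Figure D5:**
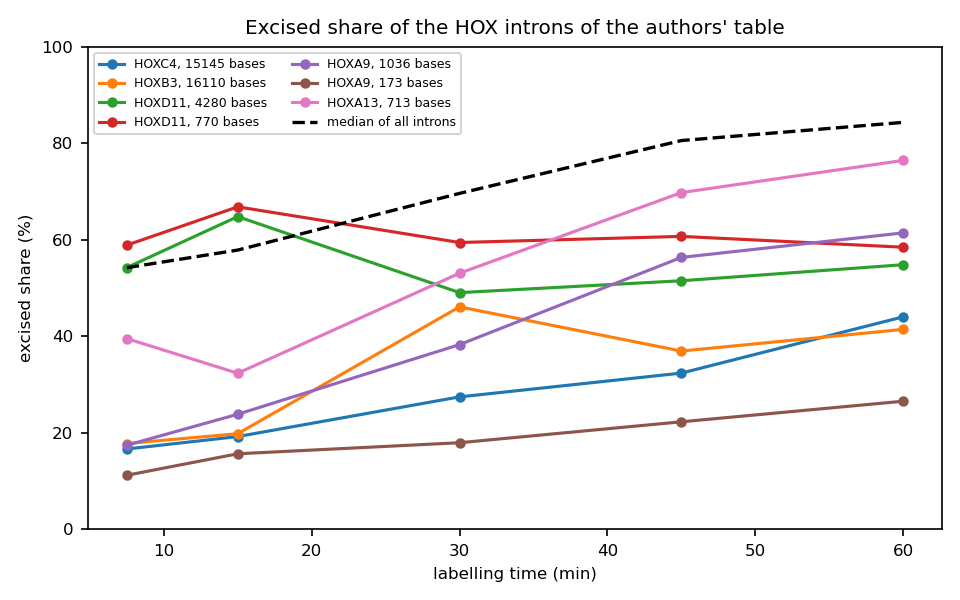
Excised share (%) of the 7 HOX introns of the authors' deposited table over labelling time (min), with the median of all 21782 introns as a dashed line; each point is the authors' mean over 3 libraries. The 173-base HOXA9 intron is lowest at 60 min (26.5%), and both HOXD11 introns stay between 49 and 66.8%.

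Genes known to act with HOX proteins or on HOX loci were read from the same fits, in which 15.8% of all genes rose and 4.21% fell in mature TPM, with a median log2 change of 0.24. Of the 9 cofactors of the PBX, MEIS and PKNOX families, all tested, 0 rose and 1 fell in mature TPM from 7.5 to 60 min, with a median log2 change of 0.03. MEIS2 fell from 109.8 ± 13.3 to 67.9 ± 5.28 TPM (log2 change -0.68 ± 0.18; limma, adjusted p = 0.0148). PBX3 and MEIS1 were at 57.1 ± 6.29 and 27.1 ± 1.81 TPM at 60 min. Of 11 Trithorax and MLL complex genes, which keep HOX genes active, 5 rose and 0 fell, with a median of 0.70, beside the 15.8% and 4.21% of all genes. KDM6A (1.46 ± 0.33), KDM6B (1.38 ± 0.33), ASH2L (1.02 ± 0.28) and WDR5 (0.97 ± 0.25) had the largest log2 changes (limma, adjusted p = 0.00578, 0.0079, 0.0198 and 0.0122). KDM6A and KDM6B remove the Polycomb mark from histone H3 and were on this list for that reason. Of 22 Polycomb genes tested, which keep HOX genes silent, 10 rose and 0 fell (15.8% and 4.21% over all genes), with a median of 0.75, among them CBX8 (1.84 ± 0.30), CBX2 (1.54 ± 0.31) and SUZ12 (1.54 ± 0.25; limma, adjusted p = 0.000603, 0.00246 and 0.000536). The 3 lists' counts of 0 were also 0 at an unadjusted p under 0.05 in limma.

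Of the RNAs made within the clusters that code for no protein, none passed this test. Of 24 listed, 22 were in the table and 13 could be tested, and 0 rose and 0 fell, beside 15.8% and 4.21% of all genes, with a median log2 change of 0.40 against 0.24. At 60 min HOXA11-AS was at 35.6 ± 3.87 TPM, HOXA-AS3 at 30.3 ± 1.3, HOXA-AS2 at 28.7 ± 2.31 and HOTAIR, which lies in HOXC, at 12.5 ± 1.67 TPM. At 7.5 min these were at 18.7 ± 4.23, 29.7 ± 4.06, 18.2 ± 8.01 and 5.87 ± 0.908 TPM. At an unadjusted p under 0.05 HOXA11-AS alone was added (limma, log2 change 0.91 ± 0.38, unadjusted p = 0.0315), and a missed threshold does not show that levels were equal. Of 10 flanking and related homeobox genes 2 could be tested, of which PDX1 rose (2.26 ± 0.67; limma, adjusted p = 0.0258) and CDX2 was at 17.6 ± 5.95 TPM at 60 min. EVX1 and EVX2, which adjoin HOXA and HOXD, reached at most 0.21 and 1.39 TPM in a labelled library. Of 11 other genes next to the clusters 7 could be tested, and 0 rose and 0 fell beside the same shares of all genes, with a median of -0.31. LNPK, next to HOXD, alone passed an unadjusted p of 0.05 (limma, log2 change 1.01 ± 0.42, unadjusted p = 0.0299).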

How the data were processed

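RNA of HEK293 cells was sequenced in 15 libraries of 4-thiouridine labelled RNA and 3 of total RNA, and samples were grouped by the labelling time or RNA kind in the labels. The authors deposited TPM, with Bowtie 1.0.1, RSEM 1.2.11 and hg19 named in the submitters' processing notes. Per the file headers, RSEM used GENCODE release 19 with 1 added isoform per gene spanning the locus, the primary transcript, and mature TPM are the sum of the other isoforms. TPM hold no read depth. Excision of each intron was deposited as a fraction, from bam2ssj counts of junctions with more than 5 reads in all 3 replicates, per the file headers; for those reads no aligner is named in the sources used here. Per the file headers, intron length was deposited as log10, splice sites as a MaxEnt score (not printed), synthesis and degradation as centred log10 rates and processing as a score, both from INSPEcT, with processing imputed by MICE for intronless genes. The balances between cell fractions were deposited as log2 ratios and translation as a log10 score, per the file headers. Copies per cell were not used here.

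Symbols and loci came from GENCODE release 29 (GRCh38), which matched 82.63% of the 63568 identifiers, and homeobox sequences from the GRCh38 genome. Locus spans of this release, and so all overlaps given here, were not compared with those of the release behind the TPM. Mature and primary TPM were tested with limma 3.58.1 in R 4.3.3 (empirical Bayes with trend) on log2(TPM + 1), over genes with a mean of at least 1 TPM in the libraries fitted, and the ratio on log2 with 0.1 TPM added, for genes at a mature mean of 1 TPM or more and a primary mean of 0.1 TPM or more. The 15 labelled libraries shared 1 fit for labelling times, and all 18 were fitted for total RNA. P-values were Benjamini-Hochberg adjusted over all genes tested, at a threshold of 0.05. The code was tested on simulated data. Some genes and a sequence are not reported here, though counts and sums include those genes. The other members are named, those at a mean of at least 1 TPM with values by library, and of each other list at most 4 genes, by largest change among those passing or else by level; HOXC5, EVX1, EVX2 and LNPK were added after their values were seen. Members and lists were chosen with earlier results of these data known. In primary values, same-numbered libraries of 7.5 and 60 min deviated together (r = 0.484, 0.243 and 0.22 over genes). Replicate 2 of 7.5 min, however, correlated best with replicate 3 of 60 min (0.282), so the numbers do not show a full pairing. Adding a replicate block changed no count of HOX calls in primary TPM. Other pseudocounts, filters, scalings, a replicate block, the 6 compared libraries alone and leaving out each library were tried. Without replicate 2 of 45 min was chosen after seeing the data, as was the rescaling of cluster sums.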

Additional observations from a re-analysis of the deposited data

How the results depend on the processing

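Scaling was the choice that moved most. Median-ratio and quantile scaling were computed within mature or within primary RNA, and so remove a change shared by most transcripts of that kind. With median-ratio scaling 7 HOX genes rose and 1 fell in primary TPM, with quantile normalization 6 rose and 2 fell, in place of 1 and 20, and the HOX genes lower in total RNA numbered 14 and 13 in place of 25. Over all primary transcripts 2948 of 14360 rose and 3378 fell with median-ratio scaling, and 2667 of 14497 rose and 3709 fell with quantile normalization. Over all genes 2523 of 16486 and 2511 of 16580 were lower in total RNA with these scalings. In primary TPM, HOXA9 turned to 1.26 and 1.00 (log2, median-ratio and quantile), HOXD10 to 1.02 and 0.67, and, with median-ratio scaling, HOXB3 to 0.015 and HOXC4 to 0.0053. Signs in primary TPM were compared only for these genes and HOXA2, HOXA3 and HOXB6. By their calls, HOXA13, HOXB7 and HOXD3 also turned, from lower on the deposited scale to higher with both scalings. HOXD11 did so with median-ratio scaling. In mature TPM from 7.5 to 60 min, HOXA2 turned to -0.13 and -0.10 under the same scalings and -0.031 over mature RNA alone, and HOXA6 to -0.071 (median-ratio). Leaving out 1 library at a time moved HOXA6 from -0.042 (without replicate 3 of 7.5 min) to 0.48 and HOXD11 from -0.28 to 0.031 (without replicate 1 of 7.5 min), with 0.019 without replicate 3 of 60 min. Against total RNA, HOXB4 turned to 0.27 and 0.58, HOXB7 to 0.20 and 0.23, HOXC10 to 0.58 and 0.65 and HOXC11 to 0.048 (quantile), and leaving out 1 library moved HOXC10 from -0.62 to 0.22 (without total replicate 3). Leaving out 1 library at a time gave 16 to 19 HOX genes higher in mature TPM, 16 to 19 lower in primary TPM with 1 higher, 15 to 18 lower in the ratio with 1 higher, and 21 to 28 lower in total RNA. Over all genes, 1835 to 2226 were higher in mature TPM and 9738 to 10851 lower in primary TPM. In the ratio 7637 to 8485 of all genes were lower, and in total RNA 4784 to 7165. In mature TPM 15 of the 19 calls held in each of 14 settings, and in the ratio 15 of 18 in each of 11. For mature TPM the replicate numbers did not pair the libraries (r = 0.273, 0.084 and 0.089, and replicate 2 of 7.5 min correlated best with replicate 3 of 60 min, 0.128). With the replicate block 20 HOX genes rose in mature TPM, 1 rose and 20 fell in primary TPM, and 1 rose and 18 fell in the ratio. Over all genes 3669 then rose in mature TPM, 11533 fell in primary TPM and 9038 fell in the ratio. Over all genes the median-ratio counts were 1297 higher and 1308 lower in mature TPM against 2653 and 705. Without replicate 2 of 45 min, 21 of 35 HOX genes rose in mature TPM, 21 of 26 fell in primary TPM and 21 of 30 in the ratio. Over all genes these counts were 3001 of 16626, 11101 of 14523 and 9257 of 13821. The deposited TPM give no depth, so how far counting error limits genes near 1 TPM is unknown.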
